A study of Homo sapiens with 4 samples.

Results

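RNA-rich cells are the MCF10A cells with the most cellular RNA relative to the synthetic RNA added to their well. MCF10A is a single, untransformed line of human breast epithelial cells, here carrying a fluorescent histone (H2B-GFP). Cells grew for 6 days as a circular patch, were labelled with light in 3 regions and were sorted alive, 1 per well, into plates of 384 wells for SORT-seq, a plate-based single-cell method that counts polyadenylated transcripts by molecular identifiers. In 2 patches the labelled bands were 1000 to 1500 μm wide (low resolution) and in 2 they were 250 μm wide (high resolution), with 1 plate per patch and no untreated group. The dyes, illumination and culture were shared by all 4 plates, which the labels give as biological replicates, 2 per labelling scheme. By the deposited names, low-resolution plate 1 was sequenced on its own flow cell and the remaining plates shared a second. Wells were not assigned to regions, so every value is for a whole patch.

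Each well received the same mixture of spike-in RNAs. A well was kept when 2000 to 9000 rows were above 0, mitochondrially encoded rows made up under 40% of its counts, and at least 20 spike-in counts were present, which left 1146 of 1536 wells. The counts of all other rows divided by the spike-in counts gave the RNA value of a well. The top quintile of each plate by this value was called RNA-rich, 228 cells in all (58, 54, 58 and 58). The bottom quintile, of the same size, was called RNA-poor. Wherever 4 values are listed they are in the order low-resolution plate 1, low-resolution plate 2, high-resolution plate 1 and high-resolution plate 2.

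The RNA content of a growing cell rises with its size and as it passes through the cell cycle. Dividing cells copy DNA in S phase and then make the kinases, motors and spindle proteins of G2 and mitosis, whose transcripts are scarce at other times. Ribosomal and respiratory genes serve growth throughout the cycle, while some long noncoding RNAs stay in the nucleus. MCF10A cells express basal keratins and laminins, and they respond to crowding and growth factors by leaving or entering the cycle.

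The largest changes in RNA-rich cells were in cell cycle genes, so the stretch before the transcription start is shown for 6 that were named whatever their values or were among the 12 largest rises. Each line gives 125 bases ending just before the start, from RefSeq on GRCh38.p14, 5′ to 3′ on the gene's strand. Capitals mark the letters CCAAT or, for the other strand, ATTGG, the pentamer of the CCAAT box, which is common in promoters of this class. Both strands were searched, and overlapping matches of the pentamers were each counted.
TOP2A, chr17:40417897-40418021, minus strand: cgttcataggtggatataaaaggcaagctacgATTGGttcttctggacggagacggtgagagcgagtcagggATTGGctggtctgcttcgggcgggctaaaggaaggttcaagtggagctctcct
CDK1, chr10:60778353-60778477, plus strand: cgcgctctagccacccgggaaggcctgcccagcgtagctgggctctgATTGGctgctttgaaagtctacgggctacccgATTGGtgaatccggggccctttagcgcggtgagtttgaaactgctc
MKI67, chr10:128126424-128126548, minus strand: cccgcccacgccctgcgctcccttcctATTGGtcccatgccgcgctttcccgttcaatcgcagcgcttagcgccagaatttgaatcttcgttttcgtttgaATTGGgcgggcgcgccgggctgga
CENPF, chr1:214603070-214603194, plus strand: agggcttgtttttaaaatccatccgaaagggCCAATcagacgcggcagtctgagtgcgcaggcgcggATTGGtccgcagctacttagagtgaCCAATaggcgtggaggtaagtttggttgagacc
CCNB1, chr5:69167025-69167149, plus strand: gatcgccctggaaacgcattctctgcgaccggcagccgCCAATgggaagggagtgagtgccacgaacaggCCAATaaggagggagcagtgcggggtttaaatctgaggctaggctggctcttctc
RRM2, chr2:10122614-10122738, plus strand: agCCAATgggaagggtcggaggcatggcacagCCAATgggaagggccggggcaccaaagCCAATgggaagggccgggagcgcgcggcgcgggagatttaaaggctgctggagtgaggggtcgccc

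TOP2A, CDK1, MKI67 and CCNB1 held 2 such pentamers and CENPF and RRM2 held 3. In TOP2A they began 93 and 53 bases before the start, and in CDK1 78 and 46 bases before it. CDK1 and RRM2 have 2 promoters each in RefSeq, of which 1 is shown. It was chosen as the promoter with the most pentamers, so for these genes the number of pentamers partly reflects that choice. At least 1 pentamer was found in 21% of all 35116 promoters and in 23.7% of the 7004 promoters of the genes tested. Of the 44 genes of the G2/M list that rose in RNA-rich cells, 35 matched RefSeq, and 67.5% of their 40 promoters held the pentamer, with 50% holding at least 2. Of the 22 S phase genes that rose, 17 matched, and the pentamer stood in 64% of their 25 promoters. Ribosomal protein genes that rose held it in 13.8% of 29 promoters. All genes that rose held it in 32.4% of 720, and all genes that fell in 23.3% of 738. These letter matches are a description of the windows and say nothing of which factor bound them.

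By the rule, the RNA value was higher in RNA-rich than in RNA-poor cells. The median value was 148, 130, 208 and 201 in RNA-rich cells, which were selected on it, and 3.12, 2.87, 3.18 and 3.21 times that of RNA-poor cells. Its numerator accounted for most of this, since non-spike-in counts were 3.16, 2.90, 2.97 and 2.80 times higher, while spike-in counts were 0.901, 0.921, 0.909 and 0.806 of those in RNA-poor cells. The median RNA-rich cell held between 57140.2 and 69030.2 non-spike-in counts. Members just inside the limit had values of 115, 107, 176 and 169, and the wells just outside it 114, 106, 175 and 167. The plates differed in level, since the lowest RNA-rich value of both high-resolution plates lay above the median RNA-rich value of both low-resolution plates.

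The spike-in species were also divided into 2 sets. Spearman's rho between the spike-in counts of each set was 0.899, 0.927, 0.877 and 0.900 over the wells of a plate. Between the RNA values from each set it was 0.961, 0.960, 0.945 and 0.954, but these share the numerator, with which the RNA value itself correlated at 0.754 to 0.804. Of the RNA-rich quintile, 52 of 58, 46 of 54, 43 of 58 and 45 of 58 cells were shared by the rankings, and no cell in the top quintile by one set was in the lowest by the other. RNA-rich cells were unevenly spread over the plates, with 0 to 12 of them per run of 24 consecutive wells. RNA-poor cells also numbered 0 to 12 per run, and the wells that passed the rule 0 to 24. Well numbers were taken as the order on the plate, and the comparison was repeated with quintiles drawn within runs. No label gives the region of a well, so position and region of a run cannot be told apart. Doublets were not called beyond the limit of 9000 rows.

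**Figure D1:**
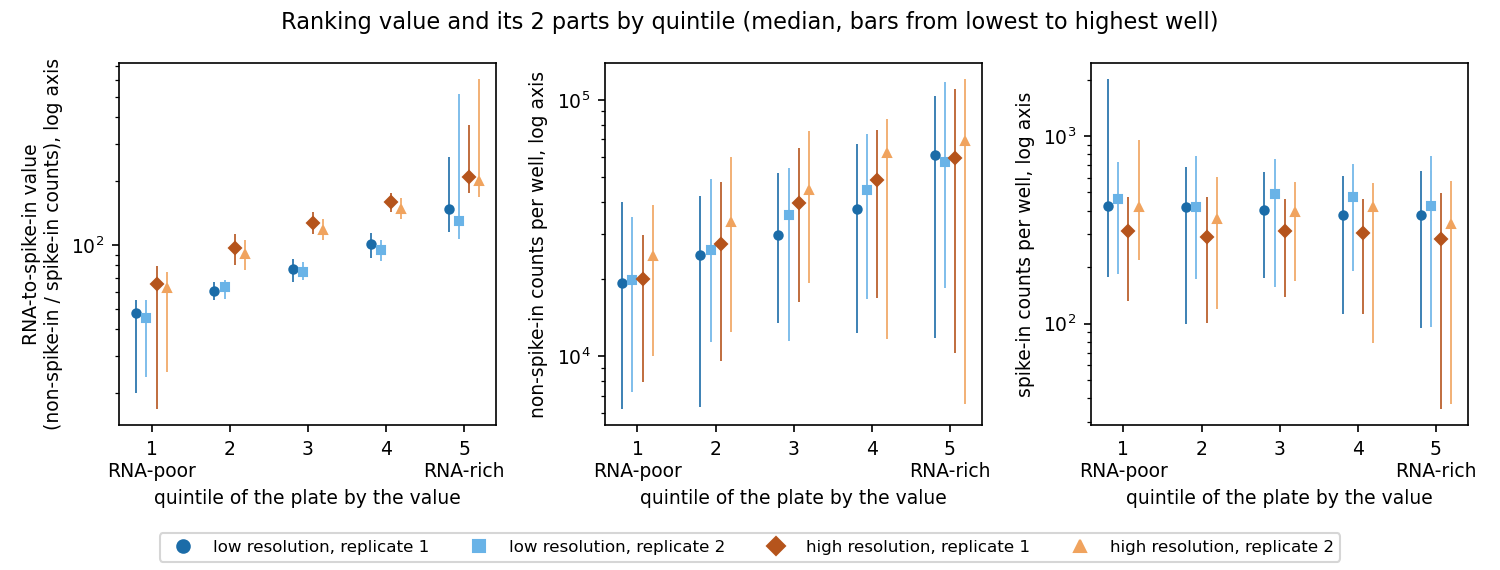
RNA value (left), non-spike-in counts (middle) and spike-in counts (right) per well over the 5 quintiles of each plate, on log axes, with points at the median and bars from the lowest to the highest well. The value and the non-spike-in counts rise from quintile 1 to quintile 5 on all 4 plates, by which the quintiles were defined, while median spike-in counts in quintile 5 are 0.806 to 0.921 of those in quintile 1.

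Both groups carried the breast basal epithelial markers that MCF10A is known for. KRT5, KRT6A, KRT14, KRT17, ITGA6, ITGB4, LAMB3, EGFR and CDH3 were counted in every plate of both groups, while TP63 was at most 0.0185 per 10000 in RNA-rich cells. The 10 markers summed to 0.576% to 0.832% of RNA-rich counts and 0.384% to 0.472% of RNA-poor counts. Of 6 leukocyte markers, PTPRC and CD3E were at 0 in all RNA-rich groups, and the summed share was 0.000877% to 0.00431%, mostly CD14, against 0.0069% to 0.00784% in RNA-poor cells. Endothelial VWF and CDH5 and fibroblast COL1A2 and COL3A1 were at 0 in both groups, and summed endothelial, fibroblast, and adipocyte and erythroid markers reached at most 0.00283% of counts.

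To compare composition apart from amount, each cell was thinned to 10000 counts, the share of a gene being its mean count per 10000. This left 58, 54, 58 and 57 RNA-rich and 56, 51, 53 and 58 RNA-poor cells. Counts were summed per plate and group and tested with edgeR's quasi-likelihood test (Benjamini-Hochberg adjusted p below 0.05), with the plate as a term. Of 5977 genes tested, 663 had a higher share in RNA-rich cells (11.1%) and 627 a lower one (10.5%), with a median log2 fold change of −0.01. At an unadjusted p of 0.05, 1969 genes passed. At least a 2-fold change was seen for 200 of the higher and 185 of the lower genes, and 643 and 583 changed in their direction on all 4 plates. Plates of the 2 groups did not overlap for 478 of the higher and 357 of the lower genes, against 9.79% and 7.48% of all genes tested whose plates did not overlap in those directions.

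The counts of every gene enter the RNA value. When cells were ranked on genes of one set of chromosomes and tested on the other set, 596 genes were higher and 601 lower. With quintiles drawn within runs of 24 wells, 258 genes were higher (4.55%) and 280 lower (4.93%) of 5674 tested. Of these, 240 and 241 were among the calls above, and no gene was called in the opposite direction. The cells then compared differ less in RNA value, and the part of well position or region in the other calls was not tested. Counts of listed genes within runs, given below, stand against these smaller shares of 4.55% and 4.93%.

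**Figure D2:**
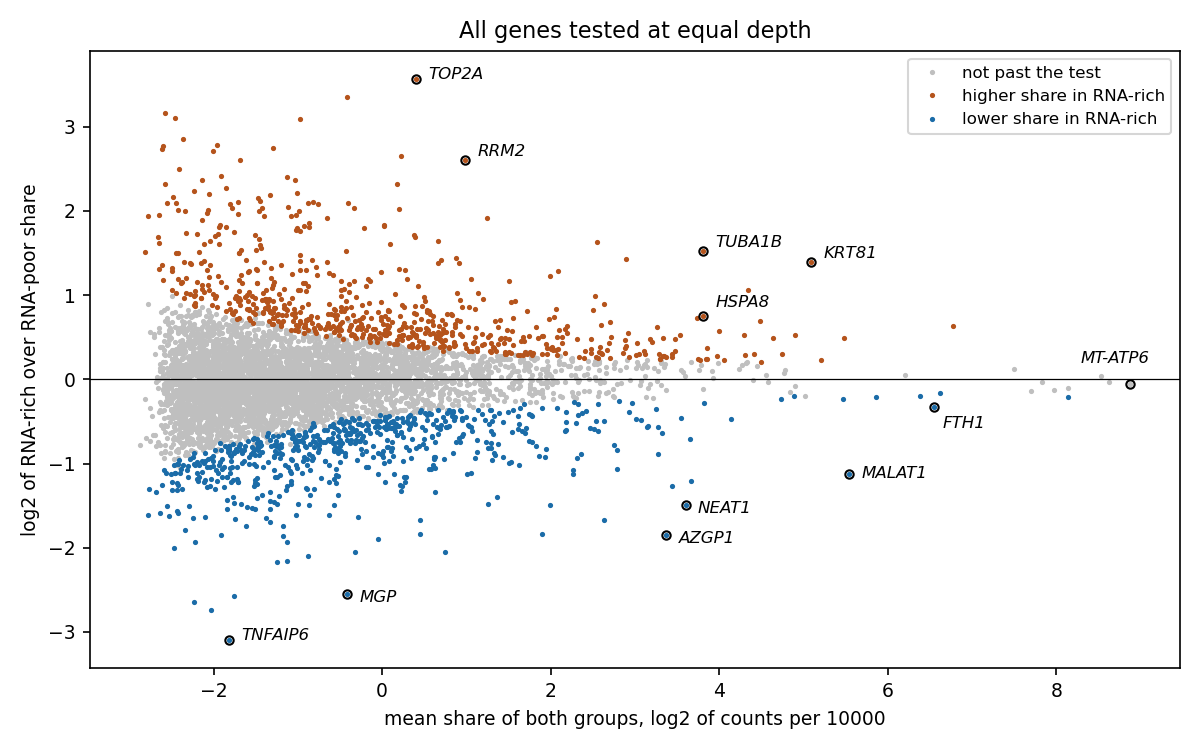
Each point is 1 of 5977 genes, with its mean share (log2 of counts per 10000) on the x axis and the log2 of RNA-rich over RNA-poor share on the y axis, coloured by the test. The 663 higher and 627 lower genes lie on both sides of a median of −0.01, with TOP2A at 3.57 and TNFAIP6 at −3.09 named among them.

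Genes of G2 and mitosis made the largest rises in RNA-rich cells. Of 54 such genes on the list, 46 were tested, 44 rose, none fell, and the median log2 fold change was 1.81, against −0.01 for all genes. Their summed share was 0.493% ± 0.086 of counts in RNA-rich cells and 0.156% ± 0.034 in RNA-poor cells (SD, n = 4 plates). On each plate it was 0.525%, 0.376%, 0.493% and 0.579% against 0.177%, 0.106%, 0.177% and 0.163%, so the lowest RNA-rich plate lay above the highest RNA-poor plate. Over the quintiles from lowest to highest RNA value, the mean was 0.156%, 0.182%, 0.277%, 0.391% and 0.493%.

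TOP2A, the topoisomerase that untangles chromosomes, had a share of 2.98, 1.41, 2.59 and 2.74 per 10000 in RNA-rich cells and 0.286, 0.0392, 0.302 and 0.19 in RNA-poor cells. Low-resolution plate 2 was lowest in both groups, which did not overlap. The log2 fold change was 3.57 ± 0.19 (SE; adjusted p = 5.8e-13). At least 1 count was found in 35.2% to 64.9% of RNA-rich cells and 3.92% to 24.5% of RNA-poor cells at equal depth. CDK1, the kinase that starts mitosis, had 1.52, 1.19, 1.21 and 1.56 against 0.161, 0.0196, 0.189 and 0.155 per 10000, again without overlap, and rose by 3.35 ± 0.25 (adjusted p = 1.6e-10). MKI67, which encodes the proliferation antigen Ki-67, had 2.67, 1.07, 2.26 and 2.04 against 0.411, 0.137, 0.377 and 0.345. It rose by 2.65 ± 0.17 (adjusted p = 9.1e-12), with low-resolution plate 2 lowest again.

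Other genes among the 12 largest rises act at the same stage, as do CCNB1 and ANLN, which are not among those 12. UBE2C, which marks mitotic cyclins for destruction, rose by 3.09 ± 0.30 on the log2 scale, and AURKA, a spindle pole kinase, by 2.74 ± 0.29. The motors KIF2C and KIF23 rose by 2.61 ± 0.31 and 2.21 ± 0.24, and the checkpoint gene MAD2L1 by 2.40 ± 0.31. FAM83D, a spindle protein, rose by 2.37 ± 0.26, CENPF, a kinetochore protein, by 2.32 ± 0.19, and MELK, a mitotic kinase, by 2.19 ± 0.28. CCNB1, the cyclin partner of CDK1, rose by 1.61 ± 0.18 (1.30 to 1.95 against 0.294 to 0.811 per 10000). ANLN, which scaffolds the cleavage furrow, rose by 1.91 ± 0.13 (2.65 to 4.98 against 0.549 to 1.20 per 10000). For each of these 10 genes the plates of the groups did not overlap.

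Genes of S phase rose as well. Of 43 listed, 26 were tested, 22 rose and none fell, with a median log2 fold change of 1.27. In runs of wells, 9 of 25 rose. RRM2, the regulated subunit of the enzyme that makes deoxyribonucleotides, had 3.29, 1.70, 4.16 and 4.37 per 10000 in RNA-rich cells and 0.571, 0.157, 0.868 and 0.655 in RNA-poor cells. Both groups were lowest on low-resolution plate 2 and did not overlap, and the log2 fold change was 2.60 ± 0.14 (adjusted p = 7.9e-13). GINS2, part of the replicative helicase, rose by 2.78 ± 0.35, MCM2, another helicase subunit, by 1.60 ± 0.30, and PCNA, the sliding clamp of DNA polymerase, by 1.38 ± 0.15. TYMS was not among the genes tested.

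The mean summed share of S phase genes was 0.0925%, 0.123%, 0.177%, 0.236% and 0.226% over the quintiles from RNA-poor to RNA-rich. The top quintile was below the one before it on 3 plates and above it on low-resolution plate 1 (0.244% against 0.231%). For G2/M genes it was above on all 4 plates. Cells among the top quintile of their plate in G2/M share made up 43.1%, 35.2%, 31% and 43.9% of RNA-rich cells and 10.7%, 3.92%, 7.55% and 3.45% of RNA-poor cells. For the S phase share the figures were 48.3%, 38.9%, 27.6% and 19.3% against 3.57%, 1.96%, 1.89% and 6.90%. Most RNA-rich cells on each plate were therefore outside the top quintile when either share was taken alone.

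**Figure D3:**
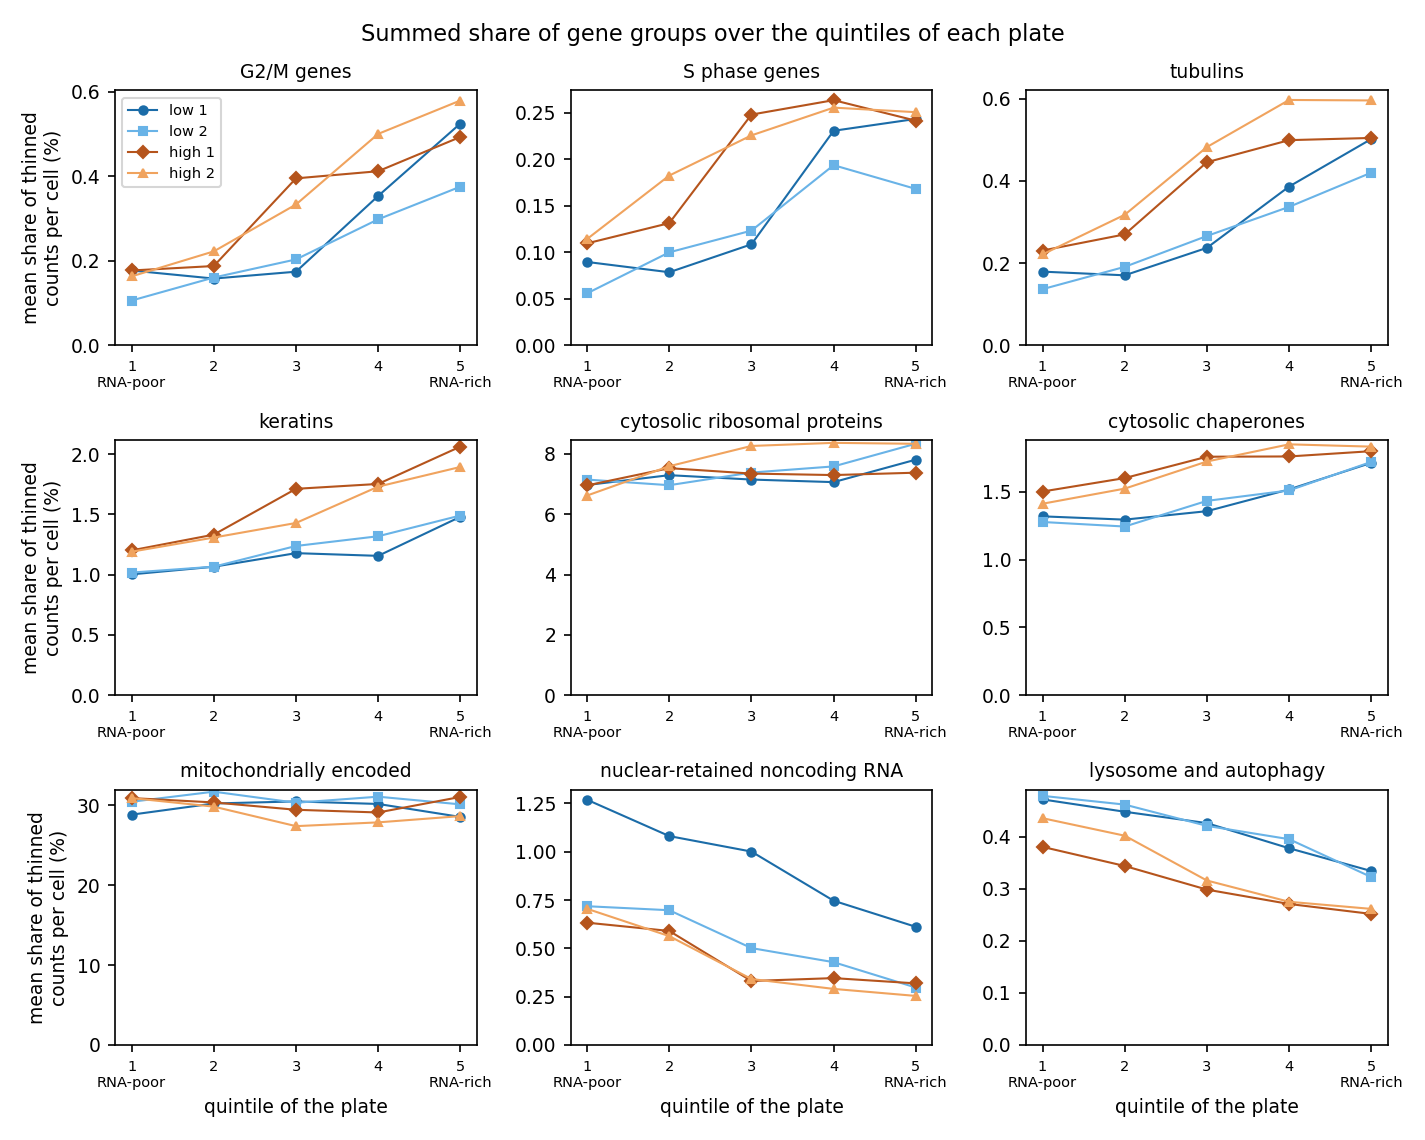
Mean share of counts per cell (%) at equal depth for 9 gene groups over the quintiles of each plate, with 1 line per plate and axes starting at 0. G2/M genes, tubulins, keratins, ribosomal proteins and chaperones rise toward the RNA-rich quintile, mitochondrially encoded counts stay near 30%, and nuclear-retained noncoding RNA and lysosome genes fall.

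Tubulins, the subunits of microtubules, rose as well. Of 12 listed with the tubulin-binding gene STMN1, 11 were tested, 9 rose and none fell, and the median was 1.16. TUBA1B had 20.4, 16.7, 20.8 and 24.3 per 10000 in RNA-rich cells and 6.45, 4.29, 8.94 and 9.69 in RNA-poor cells, a log2 fold change of 1.53 ± 0.10 without overlap. TUBA1C and TUBB4B each rose by 1.64, with standard errors of 0.10 and 0.15. Tubulin genes are close copies, and reads may be divided among them.

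Histone genes changed in both directions. Of 12 listed, 11 were tested, 5 rose and 4 fell, against 1 and 1 within runs of wells. H2AFZ, a variant found at promoters, rose by 0.89 ± 0.09 (7.12 to 9 against 3.57 to 4.93 per 10000). HIST1H4C, a replication-dependent histone H4 gene, rose by 1.28 ± 0.18, and H2AFX, the variant phosphorylated at DNA breaks, by 1.29 ± 0.25. H1F0, a linker histone of resting cells, fell by 1.44 ± 0.28 on the log2 scale (0.0862 to 0.431 against 0.472 to 0.686 per 10000). With quintiles within runs of wells, HIST1H4C (adjusted p = 0.060) and H2AFX (adjusted p = 0.052) no longer passed edgeR's test.

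Of 21 genes of growth arrest, 18 were tested, 9 fell and 3 rose, with a median of −0.39. YPEL3, which restrains growth, fell by 1.29 ± 0.23 on the log2 scale (0.414, 0.407, 0.172 and 0.246 against 0.786, 0.784, 0.887 and 0.569 per 10000, without overlap). CDKN1A, the inhibitor p21, went the other way and rose by 0.55 ± 0.11 (adjusted p = 0.00049), with overlapping plates of 4.90, 4.93, 5.26 and 6.61 against 3.00, 3.39, 4.98 and 3.53. Its call was kept in 15 of 19 alternative settings and lost, among others, within runs of wells (log2 0.18, edgeR adjusted p = 0.46). CCND1, the cyclin of early G1, had 1.19 to 1.40 per 10000 in RNA-rich and 0.868 to 1.43 in RNA-poor cells and did not pass (adjusted p = 0.38).

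Ribosomal proteins build the machine of protein synthesis. Of 86 cytosolic ribosomal protein genes, 81 were tested and 29 rose, none fell, and the median was 0.20. Within runs of wells 2 of 81 rose, against 4.55% of all genes tested there, and the median was 0.12. Their summed share was 7.81%, 8.33%, 7.37% and 8.33% of counts in RNA-rich cells and 6.97%, 7.15%, 6.95% and 6.62% in RNA-poor cells. The difference was 1.04 ± 0.55 percentage points (SD, n = 4), positive on 4 of 4 plates, and the smallest p an exact two-sided sign-flip permutation test over 4 plates allows is 0.13, so no such test was made. RPL35 rose by 0.55 ± 0.08, with 8.14, 8.83, 10.1 and 8.75 against 5.52, 5.88, 7.51 and 5.64 per 10000. RPL22L1 rose by 0.81 ± 0.14. RPL41 had 27.7 to 29.3 against 25.1 to 29 per 10000 and did not pass (adjusted p = 0.26).

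Ribosome biogenesis genes gave 8 rises and no fall among 40 tested of 49, with a median of 0.38. NPM1, a nucleolar chaperone, rose by 0.63 ± 0.09 (11.7, 11.3, 9.81 and 13.8 against 8.52, 6.65, 6.89 and 8.09 per 10000, without overlap). FBL, which methylates ribosomal RNA, rose by 0.86 ± 0.12, and NHP2, part of the pseudouridine synthase complex, by 0.88 ± 0.14. NCL, which encodes nucleolin, had 2.22 to 2.83 against 1.88 to 2.24 and did not pass (adjusted p = 0.082). Among 20 tRNA synthetases 7 rose and none fell. Of 34 translation factors, 8 rose and 3 fell. Within runs of wells the rises were 5 of 39 for ribosome biogenesis, 0 of 20 for tRNA synthetases and 1 of 34 for translation factors. Of all genes tested there, 4.55% rose. EIF5A, which helps ribosomes through difficult stretches, rose by 0.80 ± 0.15. EEF1A1, which brings aminoacyl-tRNA to the ribosome, fell by 0.19 ± 0.06 on the log2 scale (adjusted p = 0.020), a call kept in 11 of 19 alternative settings. It was lost, among others, without low-resolution plate 2 (edgeR adjusted p = 0.098) or high-resolution plate 1 (0.10) and with DESeq2 (adjusted p = 0.24).

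Of 31 chaperones of the cytosol, 30 were tested, 18 rose and none fell, and the median was 0.48. Of 30 tested within runs, 8 rose, with a median of 0.30. HSPA8, the constitutive Hsp70, had 13.5, 16.5, 18.3 and 21.9 per 10000 in RNA-rich cells and 8.29, 9.29, 10.8 and 13.1 in RNA-poor cells. The lowest RNA-rich plate lay just above the highest RNA-poor plate, and the log2 fold change was 0.75 ± 0.08 (adjusted p = 4.9e-08). HSPD1, the chaperonin of mitochondria that the list includes, rose by 0.74 ± 0.10, and PPIA, a prolyl isomerase, by 0.49 ± 0.07. Proteasome subunits gave 8 rises and no fall among 34 tested, PSMA7 among them at 0.52 ± 0.10. Splicing factors gave 11 rises and 1 fall among 38 tested, with SNRPB, a core protein of the snRNPs, at 0.73 ± 0.10 and HNRNPA2B1 at 0.43 ± 0.09. The call of HNRNPA2B1 was lost within runs of wells (adjusted p = 0.063) and in wells low in cycling genes (log2 0.04, adjusted p = 0.92). Within runs 1 of 34 proteasome subunits and 4 of 38 splicing factors rose, against 4.55% of all genes tested there.

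Of 21 tested chaperone and stress genes of the endoplasmic reticulum, none rose and 2 fell (9.52%), near the 10.5% of all genes that fell. Genes of the secretory translocon, which moves new proteins into that compartment, gave 3 rises (10.7%) and 1 fall among 28 tested. HSPA5, its main Hsp70, had 6.22, 8.46, 5.05 and 5.58 per 10000 in RNA-rich cells and 7.46, 10.8, 4.17 and 5.86 in RNA-poor cells and did not pass (adjusted p = 0.43). Of 17 tested cholesterol synthesis genes, 1 rose and 2 fell. HMGCS1, an early enzyme of that pathway, had 0.517 to 0.719 against 0.547 to 1.25 per 10000 (adjusted p = 0.24). Of 16 glycolytic genes, 1 rose and 4 fell. ALDOC, a brain-type aldolase, fell by 2.10 ± 0.25 on the log2 scale (0.0877 to 0.333 against 0.472 to 1.37 per 10000). LDHB, a lactate dehydrogenase subunit, rose by 0.62 ± 0.10, and its call was lost within runs of wells (adjusted p = 0.071). GAPDH, often used as a reference gene, had 51.5 to 56.3 against 54.7 to 73.4 per 10000 and fell by 0.21 ± 0.07 (adjusted p = 0.021). That call was kept in 13 of 19 alternative settings. It was lost, among others, without low-resolution plate 2 (edgeR adjusted p = 0.21) and with DESeq2 (adjusted p = 0.24).

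The mitochondrially encoded share of counts was nearly flat. It was 28.6%, 30.1%, 31.1% and 28.7% in RNA-rich cells and 28.8%, 30.5%, 30.9% and 30.9% in RNA-poor cells, a difference of −0.68 ± 1.07 percentage points (SD, n = 4). The largest difference was on high-resolution plate 2, and the direction was not the same on all 4 plates. With the authors' UMI correction undone, which takes most from abundant rows, the difference became −3.15 points. Of 23 mitochondrially encoded genes tested, 3 rose and 3 fell, against 2 and 10 with uncorrected UMIs. MT-ATP6, a subunit of ATP synthase, had 444, 449, 503 and 444 against 436, 472, 529 and 481 per 10000 (log2 −0.06, adjusted p = 0.43), and was called lower with uncorrected UMIs (log2 −0.28, adjusted p = 3.1e-06). MT-CYB, of complex III, fell by 0.22 ± 0.05 on the log2 scale, a call lost within runs of wells (adjusted p = 0.072), in deciles (0.12), in wells low in cycling genes (0.81), with DESeq2 (0.16) and without the replicate block (0.052). MT-TI, a mitochondrial tRNA, rose by 0.93 ± 0.11, and MT-ND6, encoded on the other strand from most subunits, by 0.68 ± 0.16. The call of MT-ND6 was kept in 13 of 17 alternative settings. It was lost, among others, without high-resolution plate 1 (edgeR adjusted p = 0.065), with uncorrected UMIs (0.067) and with DESeq2 (adjusted p = 0.095). Nuclear genes of the respiratory chain gave 10 rises and no fall among 72 tested (13.9% rose). Mitochondrial ribosomal proteins gave 10 rises and no fall among 66 (15.2% rose). Of all genes, 11.1% rose and 10.5% fell. The medians of the lists were 0.15 and 0.26, against −0.01 for all genes. Both summed shares were higher in RNA-rich cells on 4 of 4 plates. The rises within runs of wells were 12 of 72 and 0 of 65, against 4.55% of all genes tested there.

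Of 16 keratins, which form the intermediate filaments of epithelia, 13 were tested, 7 rose and 1 fell in RNA-rich cells, with a median of 0.52. With the ranking within runs, 8 rose and none fell. KRT81, a hair-type keratin expressed by breast lines, had 37.1, 33.4, 70 and 55.9 per 10000 in RNA-rich cells and 12.1, 12.9, 29.8 and 21.6 in RNA-poor cells. Both groups were higher on the high-resolution plates and did not overlap, and the log2 fold change was 1.40 ± 0.07 (adjusted p = 5.8e-13). KRT6A, a keratin of activated epithelium, had 22.2, 23.3, 28.9 and 36 against 14, 11.8, 11.9 and 14.5 and rose by 1.06 ± 0.09. KRT14, a keratin of basal cells, had 2.81, 1.11, 4.52 and 2.32 against 1.39, 0.431, 1.45 and 0.672. Its groups overlapped across plates, while RNA-rich cells were higher within each plate, and it rose by 1.44 ± 0.14 (adjusted p = 1.6e-08). Keratin genes resemble each other, and reads of KRT6A, KRT14 and KRT81 may be divided with their copies.

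KRT5, the partner of KRT14, had 20.2 to 26.4 against 14.9 to 18 per 10000, and KRT7, a keratin of simple epithelium, 30.9 to 41.9 against 20.8 to 26.8. Each rose by 0.52 ± 0.07 without overlap. KRT17 had 3.95, 5.48, 8.31 and 7.89 against 4.61, 5.2, 5.15 and 7.02 and did not pass (adjusted p = 0.23), but passed without low-resolution plate 1 (log2 0.32, adjusted p = 0.026). KRT15 was the keratin that fell, by 0.64 ± 0.11 on the log2 scale (10.4, 9.81, 5.21 and 6.30 against 12.3, 11.9, 10.1 and 13.7, with overlap). Within runs of wells it was not lower, at a log2 of 0.19 (adjusted p = 0.30).

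LAMA3, a laminin subunit of the epithelial basement membrane, had 1.86, 0.926, 1.74 and 3.46 per 10000 in RNA-rich cells and 0.464, 0.569, 0.566 and 0.776 in RNA-poor cells, highest on high-resolution plate 2 in both, and rose by 1.72 ± 0.18 without overlap. Over the whole matrix and adhesion list, 10 of 29 tested genes rose and 5 fell, and the median was 0.09. The balance turned within runs of wells, with 3 rises and 5 falls among 28 and a median of −0.10. FN1, which encodes fibronectin, fell by 0.78 ± 0.10 on the log2 scale (3.53, 3.98, 7.22 and 4.91 against 6.23, 5.49, 11.2 and 11.3, lower within every plate), and COL12A1, a fibril-associated collagen, by 1.61 ± 0.23. Of 29 actin cytoskeleton genes tested, 12 rose and 2 fell, and within runs of wells 2 of 28 rose and 1 fell. PFN1, the actin monomer binder profilin, rose by 0.73 ± 0.08, and ACTB by 0.23 ± 0.07. The call of ACTB was kept in 11 of 19 alternative settings. It was lost, among others, without either high-resolution plate (edgeR adjusted p = 0.053 and 0.076), within runs of wells (0.31) and with DESeq2 (adjusted p = 0.20).

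The lists of epithelial and mesenchymal genes were drawn from work on epithelial-mesenchymal transition. Of 36 epithelial genes tested 4 rose and 8 fell (22.2%, median −0.07), and of 29 mesenchymal genes 2 rose and 8 fell (27.6%, median 0.07), against 10.5% of all genes that fell. Within runs of wells, 6 of 33 epithelial genes rose and 3 fell, and 1 of 29 mesenchymal genes rose and 6 fell. The mesenchymal share was 0.440%, 0.458%, 0.522% and 0.509% against 0.598%, 0.479%, 0.616% and 0.579%, lower in RNA-rich cells on 4 of 4 plates by 0.0856 ± 0.0572 points, while the groups overlapped. HEG1, a membrane protein of cell junctions on the mesenchymal list, fell by 1.86 ± 0.27 on the log2 scale, and AKAP12, a scaffold of kinase A, rose by 2.01 ± 0.34. The epithelial share differed by 0.0406 ± 0.112 points. VIM, the intermediate filament vimentin, had 0.897, 1.19, 0.672 and 1.32 against 0.357, 0.235, 1.77 and 0.741 per 10000, with high-resolution plate 1 against the others. It did not pass (adjusted p = 0.29), but did without high-resolution plate 1 (log2 1.35, adjusted p = 0.00029). CDH1, the epithelial cadherin, had 0.439 to 1.02 against 0.358 to 0.824 (adjusted p = 0.96), and EPCAM 0.889 to 1.28 against 0.793 to 1.27 (adjusted p = 0.49).

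**Figure D4:**
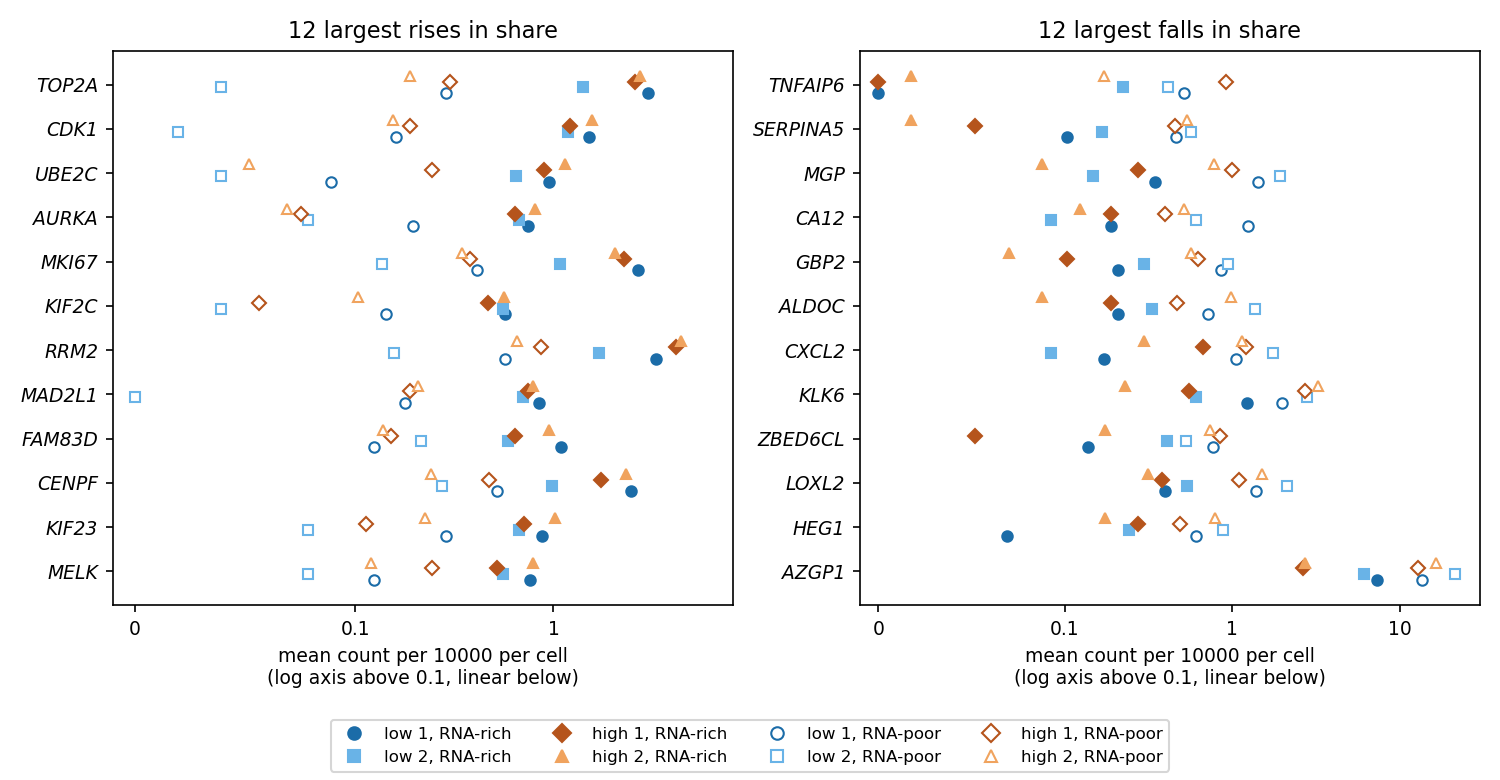
Mean count per 10000 per cell in each plate for the 12 genes with the largest rise and the 12 with the largest fall in share, with filled symbols for RNA-rich and open symbols for RNA-poor cells, on an axis that is linear below 0.1 and logarithmic above. For all 12 rises the filled and open symbols do not overlap, as for TOP2A at 1.41 to 2.98 against 0.0392 to 0.302, and for the falls only TNFAIP6 overlaps.

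The genes with the largest falls in share are described next. AZGP1, a secreted zinc-binding glycoprotein, had 7.36, 6.09, 2.66 and 2.7 per 10000 in RNA-rich cells and 13.5, 21.3, 12.8 and 16.4 in RNA-poor cells. RNA-rich cells were lower on the high-resolution plates, the groups did not overlap, and AZGP1 fell by 1.85 ± 0.16 on the log2 scale (adjusted p = 2.2e-09). MGP, a matrix protein that inhibits calcification, had 0.345, 0.148, 0.276 and 0.0877 against 1.43, 1.94, 1.00 and 0.776 and fell by 2.55 ± 0.24. The share of cells with an MGP count was 8.77% to 15.5% against 17.9% to 24.5% and so differed less than the mean did. KLK6 and KLK5, secreted kallikrein proteases, fell by 2.05 ± 0.24 and 1.20 ± 0.12. Within runs of wells, MGP (log2 −0.92, adjusted p = 0.43), KLK6 (adjusted p = 0.096) and KLK5 (adjusted p = 0.53) no longer passed, while AZGP1 did (log2 −0.91, adjusted p = 0.0019).

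TNFAIP6, a hyaluronan-binding protein induced in inflammation, fell by 3.09 ± 0.50 on the log2 scale (adjusted p = 5.0e-05). It had 0, 0.222, 0 and 0.0175 per 10000 in RNA-rich cells and 0.518, 0.412, 0.925 and 0.172 in RNA-poor cells. Low-resolution plate 2 was highest among RNA-rich groups and overlapped the RNA-poor range. No count in 58 cells, as on 2 plates, allows a mean of up to 0.0517 per 10000 and a share of cells up to 5.17%, counting error only. CXCL2, a chemokine for neutrophils, fell by 2.06 ± 0.27, CA12, a carbonic anhydrase, by 2.17 ± 0.28, and SERPINA5, a protease inhibitor, by 2.57 ± 0.34. LOXL2, which crosslinks collagen, fell by 1.89 ± 0.17 (0.316 to 0.537 against 1.09 to 2.12 per 10000), and ZBED6CL by 1.93 ± 0.32. Of the squamous and secreted epithelial list, 18 of 30 genes were tested, 8 fell and 2 rose, one of them S100A2, a calcium-binding protein of basal cells, by 0.83 ± 0.11. The list did not keep this balance within runs of wells, with 1 fall and 2 rises among 16 tested and a median of 0.02 in place of −0.65.

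Interferon-stimulated genes were lower. Of 28 listed only 8 were tested, 7 fell and none rose, with a median of −0.83, and the summed share of all 28 was 0.127%, 0.124%, 0.1247% and 0.113% against 0.192%, 0.178%, 0.164% and 0.178%, without overlap. GBP2, a guanylate-binding protein of interferon responses outside the list, fell by 2.16 ± 0.25 on the log2 scale (0.207, 0.296, 0.103 and 0.0702 against 0.857, 0.941, 0.623 and 0.569). SOD2, the mitochondrial superoxide dismutase, which inflammatory signals induce, had 2.33, 2.50, 1.47 and 2.11 against 5.93, 6.12, 5.85 and 5.57. It fell by 1.49 ± 0.11 (adjusted p = 1.6e-10) and its plates were far from overlap. FTH1, the ferritin heavy chain, fell by 0.33 ± 0.06 (75.5 to 91.1 against 96.9 to 113 per 10000), and TXN, thioredoxin, rose by 0.50 ± 0.10. Over the ferritin and antioxidant list, 5 of 20 rose (25%) and 2 fell (10%), against 11.1% and 10.5% of all genes. The median log2 fold change of this list was −0.006. Its summed share was lower in RNA-rich cells, at 1.33%, 1.38%, 1.165% and 1.19% against 1.46%, 1.57%, 1.39% and 1.47%, without overlap.

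Lysosome and autophagy genes gave 10 falls and 1 rise among 18 tested of 22, with a median of −0.49, and a summed share of 0.334%, 0.323%, 0.252% and 0.261% against 0.472%, 0.479%, 0.381% and 0.436%, without overlap. CTSD, the protease cathepsin D, had 6.26, 5.30, 3.50 and 2.98 per 10000 in RNA-rich cells and 9.45, 9.96, 7.06 and 10.6 in RNA-poor cells. PSAP, the precursor of lysosomal activator proteins, had 3.10, 3.98, 2.67 and 2.72 against 6.68, 7.25, 6.26 and 5.84. Each fell by 1.07 on the log2 scale without overlap, with standard errors of 0.12 and 0.09.

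Immediate early genes, which respond within minutes to growth signals or stress, gave 10 falls and 1 rise among 17 tested, with a median of −0.53. ZFP36, which destabilizes inflammatory transcripts, fell by 1.49 ± 0.23 on the log2 scale (0.483, 0.315, 0.190 and 0.421 against 0.732, 0.627, 1.21 and 1.43). JUN, a subunit of the transcription factor AP-1, fell by 1.07 ± 0.20, and FOSL1, another subunit, rose by 0.82 ± 0.14 with overlapping plates. Within runs of wells neither JUN (adjusted p = 0.053) nor FOSL1 (adjusted p = 0.35) passed. Of the metallothioneins, which bind zinc and copper, MT1X fell by 1.33 ± 0.19 and MT2A rose by 0.69 ± 0.09, a rise not called within runs (adjusted p = 0.22).

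Noncoding RNAs retained in the nucleus fell in share. All 3 on the list were tested and fell. MALAT1, of nuclear speckles, had 49, 23.2, 25.4 and 20.4 per 10000 in RNA-rich cells and 98.5, 57.5, 44.8 and 53.1 in RNA-poor cells. Low-resolution plate 1 was highest in both groups, so that the groups overlapped, while within each plate RNA-rich cells were lower. The log2 fold change was −1.13 ± 0.08 (adjusted p = 6.4e-11). NEAT1, the scaffold of paraspeckles, had 10.3, 5.65, 5.50 and 4.28 against 25.7, 12.5, 17 and 16.1 and fell by 1.49 ± 0.10 without overlap. Their summed share with KCNQ1OT1 decreased over the quintiles from RNA-poor to RNA-rich, at 0.831%, 0.733%, 0.544%, 0.453% and 0.370%.

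A lower share is not fewer counts. Per spike-in count, which is the measure that chose the cells, the median gene had 3.52 times more counts in RNA-rich than in RNA-poor cells. Of the genes tested, 5896 were higher on this scale on all 4 plates (98.6%) and 6 were lower on all 4 (0.1%), all 6 of them among the 627 with a lower share. Of those 627 genes, 554 still had more counts per spike-in count on every plate. NEAT1 had 1.29 times and MALAT1 1.69 times more, SOD2 1.38 times, CTSD 1.70 times and PSAP 1.64 times. AZGP1 was at 0.873 and TNFAIP6 at 0.167 of the RNA-poor level, whereas MT-ATP6 was at 3.38 times and TOP2A at 36.1 times. These values follow from the ranking and carry no test.

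The comparison was repeated in cells low in cycling genes. Wells at or below the median of their plate in both the S phase and G2/M shares were ranked anew, with 24, 22, 25 and 27 wells in each quintile. Of 3266 genes tested, 73 were higher (2.24%) and 118 lower (3.61%), 59 and 99 of them shared with the calls in all wells. Selection of these wells fixes the S phase and G2/M shares at a low level, so their differences there are not results. KRT81 rose by 1.73 ± 0.12 on the log2 scale (edgeR adjusted p = 2.1e-12), KRT14 by 1.5, KRT6A by 1.02 and LAMA3 by 1.66. Keratins gave 6 rises and 1 fall among 13 tested, and matrix and adhesion genes 10 rises and no fall among 27. CDKN1A rose by 0.84 (adjusted p = 0.0014), and VIM, which had not passed in all wells, rose by 1.08 (adjusted p = 0.039).

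Falls were found there too. MGP fell by 3.40 on the log2 scale, CXCL2 by 2.38, HEG1 by 2.31, KLK6 by 1.86, SOD2 by 1.21, NEAT1 by 0.81 and MALAT1 by 0.60, each past the test. Lists that had mostly fallen in all wells also gave fewer calls there. Falls were called for 2 of 15 lysosome and autophagy genes, 1 of 6 interferon-stimulated genes and 3 of 16 immediate early genes. Of 13 growth arrest genes 2 fell and 1 rose. Over all genes tested there, 3.61% fell. Of all genes tested there, 2.24% rose, so few rises are looked for in a short list. The test was passed by 1 of 79 ribosomal protein genes, 1 of 27 chaperones, none of 18 ribosome biogenesis genes and none of 8 tubulins. The medians were 0.18, 0.15, −0.01 and 0.43, against 0.20, 0.48, 0.38 and 1.16 in all wells. FTH1 (log2 −0.00, adjusted p = 0.99) and FN1 (log2 0.24, adjusted p = 0.44) were not lower among these wells. Each group then held 22 to 27 wells in place of 51 to 58, and the part of that number in the smaller count of calls was not tested.

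**Figure D5:**
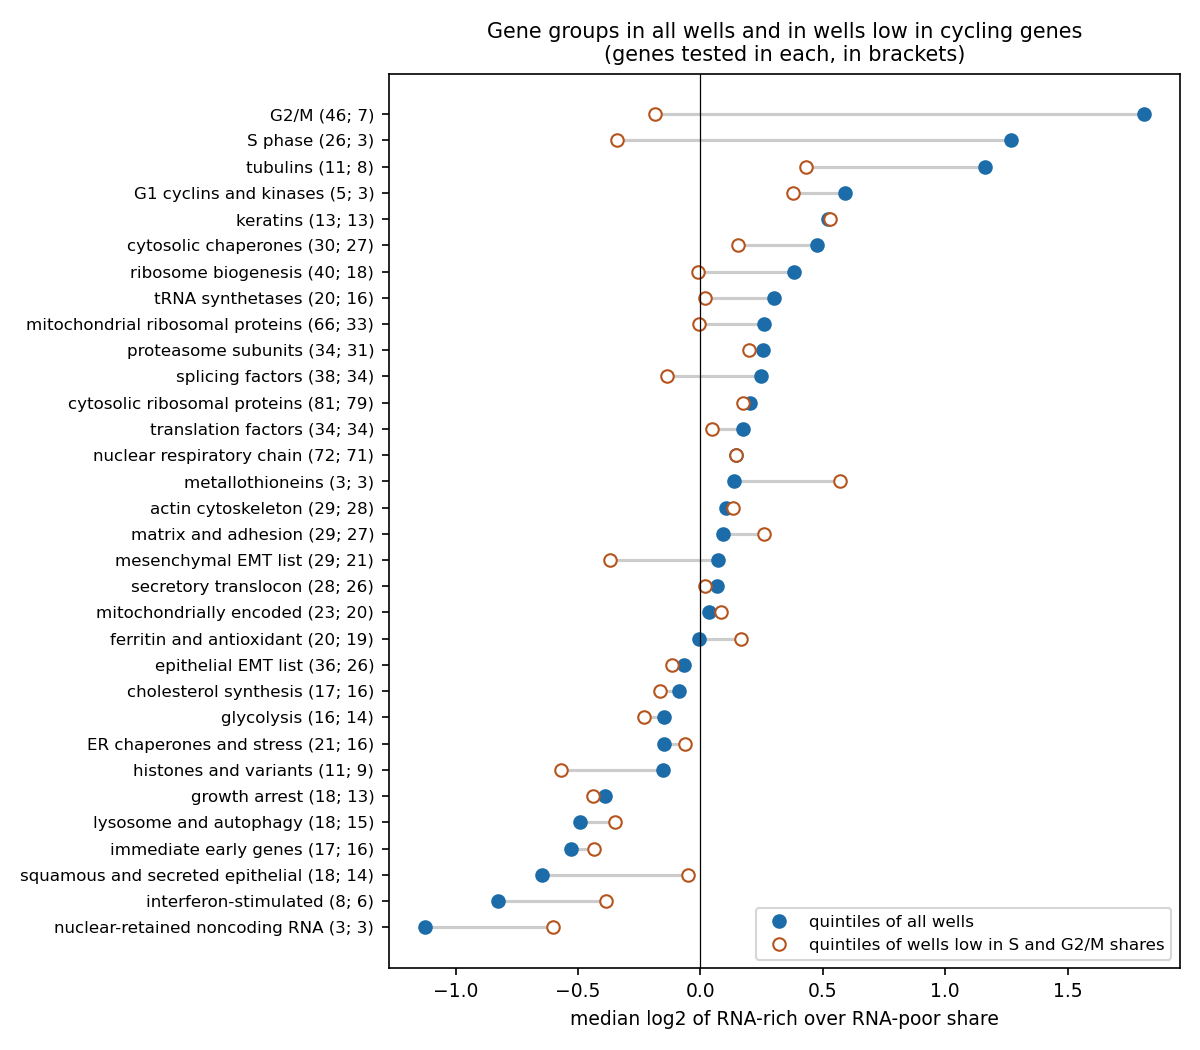
Median log2 of RNA-rich over RNA-poor share for each gene list, with filled points for quintiles of all wells and open points for quintiles of wells low in S phase and G2/M shares, and the genes tested in each in brackets. Tubulins move from 1.16 to 0.43 and chaperones from 0.48 to 0.15, while keratins stay at 0.52 and 0.53 and matrix and adhesion genes are at 0.09 and 0.26.

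The difference between RNA-rich and RNA-poor cells was compared between labelling schemes by an interaction term in edgeR's quasi-likelihood test. Of 5977 genes, 4 passed (0.0669%), and 335 had an unadjusted p below 0.05. HSD11B2, which inactivates cortisol, had 4.86, 4.41, 1.78 and 1.37 per 10000 in RNA-rich cells and 7.84, 10.1, 8.09 and 11.1 in RNA-poor cells. It was lower in RNA-rich cells on every plate, and more so by a log2 of 1.65 ± 0.23 on the high-resolution plates (interaction −1.65, adjusted p = 0.00014). AZGP1 followed the same order (interaction −1.10 ± 0.22, adjusted p = 0.038). PDK4, a kinase that restrains pyruvate oxidation, had 0.603, 1.44, 0.138 and 0.193 against 0.589, 2.27, 0.566 and 1.22 (interaction −1.98 ± 0.41, adjusted p = 0.044).

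POSTN, which encodes the matrix protein periostin, gave the largest interaction, −3.85 ± 0.59 (adjusted p = 0.00065). RNA-rich cells had 0.50, 0.426, 1.43 and 0.439 per 10000 and RNA-poor cells 0.0536, 0.0196, 1.47 and 0.741. RNA-rich cells were higher on both low-resolution plates (log2 3.00 and 3.88) and lower on high-resolution plates 1 (−0.04) and 2 (−0.74), and over all plates the difference did not pass (adjusted p = 0.42). With 2 plates per scheme, and low-resolution plate 1 alone on its flow cell, labelling scheme and patch cannot be told apart.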

How the data were processed

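Wells of 4 plates of MCF10A cells were measured by SORT-seq. The authors deposited, for each gene and well, an expected count: distinct molecular identifiers, adjusted upward for repeat draws of the same identifier, unscaled and over all wells. The submitters' processing notes name hg38, STAR 2.7.3a and Seurat 4, with no role given, and the annotation is not given in the sources used here. Correction for 4096 identifier sequences could be undone, and uncorrected UMIs came to 94.2% to 94.5% of the deposited expected counts. Plates held 11709628 to 14992348 counts.

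Non-spike-in rows were rounded, each cell was thinned without replacement to 10000 counts, shallower cells were left out, and counts were summed per plate and quintile, since cells are not replicates. The 8 sums were fitted with edgeR 4.0.16 (R 4.3.3, quasi-likelihood test, filterByExpr, plain library sizes, terms for plate and quintile, Benjamini-Hochberg adjustment), and standard errors were the absolute log2 fold change over the square root of F. The plate term is the replicate block: both quintiles come from 1 plate, and their deviations from the group means correlated at 0.240, 0.251, 0.278 and 0.151 within plates (log2 with a pseudocount of 0.1 per 10000). P-values measure the spread over plates of the difference within a plate, with edgeR drawing on all genes to estimate it. The fit was also run on simulated counts with chosen dispersions, which were not estimated from these data, so this does not show how well the calls here are calibrated. DESeq2 1.42.0 was an alternative. Others were TMM factors, no filter, 5000 counts, no thinning, another seed, uncorrected UMIs, mitochondrial rows left out, deciles, ranking by counts alone, at least 100 spike-in counts, wells low in cycling genes, split chromosomes, no block, and each plate left out. Quintiles within runs of 24 wells were added after the data were seen. Cell cycle lists are those of Seurat 5.3.0.

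The members and gene lists were chosen with earlier results of these data known. Genes named are, among those past the test with 1 direction on all plates and a share of at least 0.5 per 10000 in a group, the 12 largest rises and 12 largest falls. From each list come the member with the highest share and up to 2 largest rises and falls, from which a part is described. A fixed panel is described whatever its values, and genes with a called interaction were added. One gene that the rule names is not reported here. Sequences are from RefSeq, matched by symbol.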

Additional observations from a re-analysis of the deposited data

Results flagged for a closer look

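In 10 of 215 groups of 4 plates, 1 plate stood apart from the other 3 past Dixon's critical value, and chance gives about 1 in 20. Genes with a count per cell at equal depth were 2994.5 in RNA-poor cells of low-resolution plate 1 and 2841.5 to 2865 on the other plates. The summed share of S phase genes was 0.168% in RNA-rich cells of low-resolution plate 2 and 0.242% to 0.251% elsewhere. In RNA-poor cells, AURKA had 0.196 per 10000 on low-resolution plate 1 against 0.0690 to 0.0784. MAD2L1 had 0 in the 51 RNA-poor cells of low-resolution plate 2, which allows up to 0.0588 per 10000, against 0.179 to 0.207 on the other plates.

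In RNA-rich cells, KIF2C had 0.466 per 10000 on high-resolution plate 1 against 0.556 to 0.569. RPL22L1 had 2.40 on high-resolution plate 2 against 1.66 to 1.76. MT-ATP6 had 503 on high-resolution plate 1 against 444 to 449. CDH1 had 1.02 on low-resolution plate 1 against 0.439 to 0.534. TNFAIP6 had 0.222 on low-resolution plate 2 against 0 to 0.0175. POSTN had 1.43 on high-resolution plate 1 against 0.426 to 0.50.

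For 4 genes the log2 difference between RNA-rich and RNA-poor cells itself differed between labelling schemes by edgeR's interaction test. High minus low resolution was −1.10 for AZGP1, −1.65 for HSD11B2, −1.98 for PDK4 and −3.85 for POSTN. POSTN also moved in opposite directions, with a mean log2 difference of −0.39 on the high-resolution plates and 3.00 to 3.88 on the low-resolution plates.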

How the results depend on the processing

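Counts of genes called higher or lower moved with several settings, and no named gene was called in the opposite direction under any of them. Another random seed for the thinning gave similar counts, 665 and 654, but not all the same genes. Of the 663 higher and 627 lower genes, 499 and 477 were called again. All 85 named genes with a call that were tested with that seed kept it. Against 663 higher and 627 lower, DESeq2 called 246 and 203, thinning to 5000 counts 343 and 323, no thinning 1358 and 1537, and deciles 335 and 320. Wells low in cycling genes gave 73 and 118, and quintiles within runs of wells, chosen after seeing the data, 258 and 280. Without mitochondrially encoded rows 905 were higher and 970 lower. Without the replicate block, which pairs the 2 quintiles of a plate, 447 were higher and 383 lower. Leaving out each plate gave 478 to 615 higher and 456 to 585 lower. Genes with a called interaction numbered 4, and 2 with TMM factors, 15 without the filter and 1 with DESeq2. Deciles, thinning to 5000 counts and wells low in cycling genes also tested fewer genes. For the other settings the cause was not tested.

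Of the genes named with a call, 80 of 86 kept it under DESeq2, 80 of 86 without the replicate block, 76 of 82 in deciles, 68 of 85 within runs of wells and 37 of 67 in wells low in cycling genes.

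Differences in share are RNA-rich minus RNA-poor. For the mitochondrially encoded share, −0.68 points became −3.15 with uncorrected UMIs, 1.15 in wells low in cycling genes and 0.670 within runs of wells. Genes per cell, 24.9 ± 49.2, became 84.1 with uncorrected UMIs, −28.5 in deciles and −71.2 in wells low in cycling genes. The G2/M difference of 0.337 points became 0.538 without mitochondrially encoded rows and −0.00060 in wells low in cycling genes. The S phase difference of 0.134 points became 0.201, −0.013 and, within runs, 0.101. Selection of wells low in cycling genes fixes the G2/M and S phase shares, so their differences there are not results. The difference of the mesenchymal list, −0.0856, became −0.0076 in wells low in cycling genes and −0.163 within runs.

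Log2 changes reversed in wells low in cycling genes for ANLN (−0.27), PCNA (−0.26), H2AFZ (−0.040), NCL (−0.27), RPL41 (−0.0022), MT-ATP6 (0.0038), FN1 (0.24), EPCAM (−0.17) and HSPA5 (0.030), and within runs for MT-ATP6 (0.028), KRT15 (0.19) and POSTN (−0.33). VIM reversed in deciles (−0.25), EPCAM at 5000 counts (−0.038) and POSTN with another seed (−0.085). CDH1, not called, was −0.0048 under DESeq2, −0.00095 without thinning, −0.081 without mitochondrially encoded rows and −0.24 with split chromosomes, and −0.30 to 0.31 with each plate left out (−0.30 without low-resolution plate 1 and −0.11 without high-resolution plate 1). ANLN and PCNA are on the lists that chose the wells low in cycling genes, so their values there are not results. For the other genes the cause was not tested.

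Depth limits rare genes: 5977 of 15640 genes passed the filter, and many listed genes were not tested.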
